A study of Homo sapiens with 2 samples.

Results

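Basal and stress keratins were examined in 2 human breast cancer cell lines, MDAMB468 and CAL51, both labelled triple negative, meaning that they lack the oestrogen receptor, the progesterone receptor and HER2 amplification. The set holds 9 genes of the 30796 in the deposited matrix: KRT5, KRT14, KRT15, KRT16, KRT17, KRT6A, KRT6B, KRT23 and KRT81. They were given as a list of symbols and matched by Ensembl identifier, with no threshold on a measured value, though earlier results of these data were known when the list was drawn up. Each line was 1 single-cell library of mRNA 3′ ends made by Drop-seq. In Drop-seq a cell and a primer-coated bead meet in an oil droplet, and each captured mRNA receives the barcode of its bead and a unique molecular identifier (UMI), so that a UMI stands for 1 mRNA. No genotype, treatment, passage or culture condition was given for either line, and with 1 library per line no difference below has a replicate check.

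The MDAMB468 library held 306 barcodes and 5501900 UMIs. The CAL51 library held 1346 barcodes and 16223444 UMIs after 31 barcodes were left out whose 12-base sequence also occurred in MDAMB468; those 31 carried keratin UMIs at the MDAMB468 level, as given in the closing section. In MDAMB468, 64 barcodes differed by 1 base from another MDAMB468 barcode that had 5 or more times their UMIs. Such barcodes, called satellites, were kept in the sums and left out wherever cells were counted. The 242 other MDAMB468 barcodes are called cells below and had a median of 14828.5 UMIs, against 8660 in the 1339 CAL51 cells. Levels are given as CPM, the UMIs of a gene after each line is brought to a common total. Markers of epithelium, listed to check the cell type, summed to 5105 CPM in MDAMB468 and 2788 in CAL51, and KRT7 was the 1 defining marker of the 6 with no UMI in CAL51. Luminal markers summed to 118 and 31.7 CPM, myoepithelial markers to 16.4 and 519, mesenchymal markers to 4.18 and 61.0, immune markers to 1.64 and 0.740, and endothelial markers to 1.09 and 0.370. CNN1, COL3A1, COL1A2, PDGFRB, PTPRC, VWF and CDH5 were at 0 in MDAMB468, and their part in the keratin values was not tested.

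Keratins are intermediate filament proteins that assemble as pairs of a type I and a type II chain. KRT5 (type II) with KRT14 or KRT15 (type I) forms the filaments of basal cells in stratified epithelia and of basal and myoepithelial cells in the breast. KRT6A and KRT6B (type II) with KRT16 and KRT17 (type I) are produced in wounded, inflamed or hyperproliferative epidermis, which is why they are called stress keratins. KRT5, KRT14 and KRT17 are also used in pathology as markers of basal-like breast cancer. KRT23 is a type I keratin of epithelia and KRT81 is a type II keratin of the hair cortex.

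Some paralogous keratins have near-identical coding sequences, and a read can be given to 1 of them only where they differ. The last 60 coding bases of KRT6A and KRT6B, stop codon included, are shown because these neighbours had very different counts. Both are read 5′ to 3′ on the minus strand, from GENCODE release 29 on GRCh38, with capitals at the positions that differ between the 2 genes.
KRT6A (chr12:52487720-52487779): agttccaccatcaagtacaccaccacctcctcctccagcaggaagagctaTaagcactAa
KRT6B (chr12:52447190-52447249): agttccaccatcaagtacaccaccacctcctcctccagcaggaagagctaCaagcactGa
The coding ends differed at 2 of 60 positions, yet the last 500 bases of each transcript, the part next to the poly(A) tail, shared no 60-base window with any other annotated gene. The last 60 coding bases of the type I genes KRT14, KRT16 and KRT17 follow because the first pair of them shares short 3′ stretches with pseudogenes, on the minus strand of the same build, with capitals at the positions where the 3 are not all alike when lined up from the stop codon without gaps.
KRT14 (chr17:41582435-41582494): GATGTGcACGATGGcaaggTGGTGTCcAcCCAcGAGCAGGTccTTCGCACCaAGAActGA
KRT16 (chr17:41609935-41609994): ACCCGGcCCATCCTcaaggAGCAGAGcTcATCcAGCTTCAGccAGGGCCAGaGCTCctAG
KRT17 (chr17:41619594-41619653): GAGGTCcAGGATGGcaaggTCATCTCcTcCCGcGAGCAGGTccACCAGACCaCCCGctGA
These ends were not all alike at 46 of 60 positions, which is not a count between any single pair of them. Of the 441 windows of 60 bases in the last 500 bases, KRT14 shared 36 (8.16%) with the pseudogene KRT16P6, KRT16 shared 41 (9.30%) with KRT17 and the pseudogenes KRT16P1 and KRT16P3, and KRT17 shared 2 (0.454%) with KRT16. KRT14 and KRT16 shared none. For KRT5, KRT15, KRT6A, KRT6B, KRT23 and KRT81 no window was shared, so an exact 60-base match there has 1 annotated source. The sources used here do not give how the authors divided reads between paralogs, and the values of KRT14, KRT16 and KRT17 are uncertain to that extent.

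MDAMB468 carried nearly all UMIs of these keratins. The 9 genes summed to 4804 UMIs in MDAMB468, or 873 CPM, against 19 UMIs or 1.17 CPM in CAL51. By role, the basal keratins KRT5, KRT14 and KRT15 gave 56.1% of the MDAMB468 sum, KRT23 and KRT81 together 26.5%, and the 4 stress keratins 17.4%. At least 20 UMIs over both lines were found for 8 of the 9, and all 8 were at least 4-fold higher in MDAMB468 on a log2(CPM + 1) scale. Over the whole matrix, 1132 of 15347 genes with at least 20 UMIs were at least 4-fold higher in MDAMB468 (7.38%) and 896 at least 4-fold lower (5.84%). The 8 keratins reached 20 UMIs through MDAMB468 alone, so their count among these genes follows from that filter and supports nothing.

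KRT5 (ENSG00000186081; GRCh38, chromosome 12, 52514575 to 52520687) had the most UMIs of the set, 2224 in MDAMB468 and 0 in CAL51. Its level in MDAMB468 was 404 CPM (exact 95% Poisson interval 388 to 421). Against a floor of 3 counts in the CAL51 library it was at least 2186-fold higher in MDAMB468. KRT5 alone made up 46.3% of the keratin UMIs of the set. Its basal type I partners were far lower. KRT14 had 93 UMIs and 0 UMIs, or 16.9 CPM in MDAMB468 (13.6 to 20.7), and was at least 91.4-fold higher there. KRT15, a type I keratin of basal keratinocytes and hair follicle stem cells, had 376 UMIs and 1 UMI, or 68.3 CPM in MDAMB468 (61.6 to 75.6) and 0.0616 in CAL51, a ratio of 1109 (198 to 43907). In MDAMB468 there were 23.9 UMIs of KRT5 for each of KRT14 (19.4 to 29.8), and 4.74 for each of KRT14 and KRT15 together (4.29 to 5.25). A 3′ library counts 1 end per captured mRNA, so these ratios do not scale with gene length, but capture may differ between genes.

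Of the stress keratins, KRT17 was the most abundant in MDAMB468, with 338 UMIs or 61.4 CPM (55.1 to 68.3). CAL51 had 16 UMIs of KRT17, or 0.986 CPM (0.564 to 1.60), and the ratio of the lines was 62.3 (37.8 to 110). KRT6B had 268 UMIs in MDAMB468, or 48.7 CPM (43.1 to 54.9), and 0 in CAL51, at least 263-fold higher. KRT16 had 229 UMIs in MDAMB468, or 41.6 CPM (36.4 to 47.4), and 1 in CAL51, a ratio of 675 (120 to 26786). KRT6A had 1 UMI in MDAMB468 and 0 in CAL51, so both lines were under the floor and no fold is given. The KRT6 chain counted in this library was therefore KRT6B, the gene whose coding end is printed above beside that of KRT6A. There were 2.11 UMIs of the type I stress keratins KRT16 and KRT17 for each of KRT6A and KRT6B (1.82 to 2.45).

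KRT23 had 913 UMIs in MDAMB468, or 166 CPM (155 to 177), and 0 in CAL51, at least 897-fold higher. KRT81 had 362 UMIs in MDAMB468, or 65.8 CPM (59.2 to 72.9), and 1 in CAL51, a ratio of 1067 (190 to 42276). The ratios of KRT15, KRT16 and KRT81 rest on 1 CAL51 UMI each, with the width their intervals show, and cannot be ordered against the bounds of the members with none. In MDAMB468 the order of levels was KRT5, KRT23, KRT15, KRT81, KRT17, KRT6B, KRT16, KRT14 and KRT6A. Of the 8 neighbouring pairs in that order, KRT15 and KRT81, KRT81 and KRT17, and KRT6B and KRT16 had overlapping counting intervals; the other 5 did not. The type II members summed to 2855 UMIs and the type I members to 1949, a ratio of 1.46 (1.38 to 1.55).

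**Figure D1:**
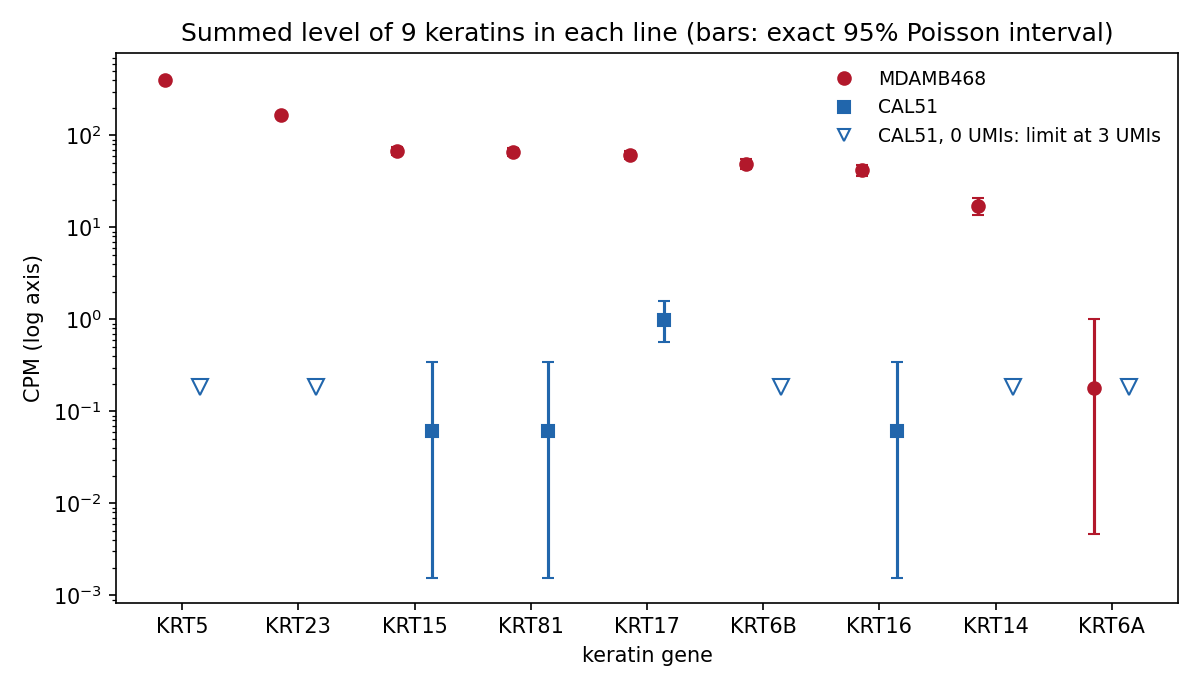
Summed level of each keratin in MDAMB468 (circles) and CAL51 (squares) in CPM, on a log axis, with exact 95% Poisson intervals that cover counting error only; open triangles mark the limit of 3 UMIs where CAL51 had none. Apart from KRT6A, every MDAMB468 value lies between 16.9 and 404 CPM, and the highest CAL51 value is 0.986 CPM for KRT17.

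KRT17 was the 1 member with more than 1 UMI in CAL51. Its 16 UMIs came from 12 of 1346 barcodes, with at most 3 in a barcode and 1 in each of 9. Those 12 barcodes held 0 UMIs of the other 8 keratins, none was a satellite, 33 of the 496 KRT19 UMIs of CAL51 were in them, and their median total of 17783.5 UMIs compares with 8601 in the other barcodes. Part of the KRT17 level in MDAMB468 rested on few cells as well. A single cell held 59 of the 329 KRT17 UMIs in cells (17.9%), the next highest held 22, and 10 cells held 51.4%. KRT17 was not alone in this. The top 10 cells of each gene held 63.7% for KRT14, 50.7% for KRT16, 47.1% for KRT6B and 40.1% for KRT81. For KRT15, KRT23 and KRT5 they held 31.0%, 24.7% and 23.8%. These counts were not brought to equal depth. The cells ranged from 2515 to 134213 UMIs, and the part of depth in these shares was not tested. Without the barcode with 59 UMIs the log2 line difference of KRT17 was 4.72 instead of 4.97.

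Few other keratins were detected. Of 17 further keratin genes in the matrix besides KRT7, KRT8, KRT18 and KRT19, 13 had under 20 UMIs over both lines, with at most 6 in MDAMB468. KRT80, KRT86 and KRT222 passed 4-fold on the same scale, on 28, 22 and 23 UMIs in MDAMB468. KRT10, a keratin of differentiating suprabasal epidermis, had 91.4 CPM in MDAMB468 and 70.5 in CAL51, a log2 difference of 0.37. The pseudogene KRT16P6 had 87 UMIs in MDAMB468 and 0 in CAL51, close to the 93 of KRT14, with which it shares 3′ sequence. Of the 4 simple keratins, KRT7 (953 and 0 CPM) and KRT19 (1934 and 30.6 CPM) were at least 4-fold higher in MDAMB468, KRT8 (764 and 919 CPM) was not, and KRT18 was 2.80-fold higher in CAL51 (1555 against 555 CPM). The summed basal and stress keratins were thus less abundant in MDAMB468 than KRT7 or KRT19 alone.

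Within MDAMB468, most cells had a UMI of at least 1 of these keratins. To compare cells at equal depth, the 208 MDAMB468 cells with at least 5000 UMIs were each thinned at random to 5000, which left out 34 shallower cells, and 1069 CAL51 cells were thinned likewise, leaving out 270. At that depth 196 of 208 MDAMB468 cells (94.2%, exact Clopper-Pearson 95% interval 90.1 to 97.0) had a UMI of 1 or more members, against 5 of 1069 CAL51 cells (0.468%, 0.152 to 1.09). All 5 of those CAL51 cells were positive for KRT17, and each other member was at 0 of 1069, which allows a share of up to 0.281% by 3 counts of the total and 0.344% by the exact upper limit. The MDAMB468 library held no second cell type to show how many UMIs free RNA adds there, and that part was not tested.

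KRT5 was detected in 161 of the 208 cells (77.4%, 71.1 to 82.9), KRT23 in 102 (49.0%, 42.1 to 56.0), KRT81 in 47 (22.6%) and KRT15 in 46 (22.1%). Among the stress keratins, KRT17 was detected in 37 cells (17.8%, 12.8 to 23.7), KRT16 in 31 (14.9%, 10.4 to 20.5), KRT6B in 29 (13.9%, 9.54 to 19.4) and KRT6A in 1 (0.481%). KRT14 was detected in 14 (6.73%, 3.73 to 11.04). At least 1 stress keratin was found in 74 cells (35.6%, 29.1 to 42.5). These shares depend on the draw and on the depth. Over 100 random thinnings the KRT5 share averaged 73.8% (68.3 to 78.4) and the stress keratin share 35.4% (30.8 to 40.9). The KRT15 share averaged 24.8% (19.7 to 30.3) over these draws, and 1 further draw outside them gave 33.7%. Without thinning, over 242 cells of unequal depth, the shares were 86.0% for KRT5, 70.2% for KRT23, 48.8% for KRT15, 38.8% for KRT81, 33.1% for KRT17, 27.7% for KRT6B, 27.3% for KRT16, 14.5% for KRT14 and 56.6% for any stress keratin. At 10000 UMIs, reached by 153 cells, KRT5 was detected in 92.8% and KRT23 in 72.5%.

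**Figure D2:**
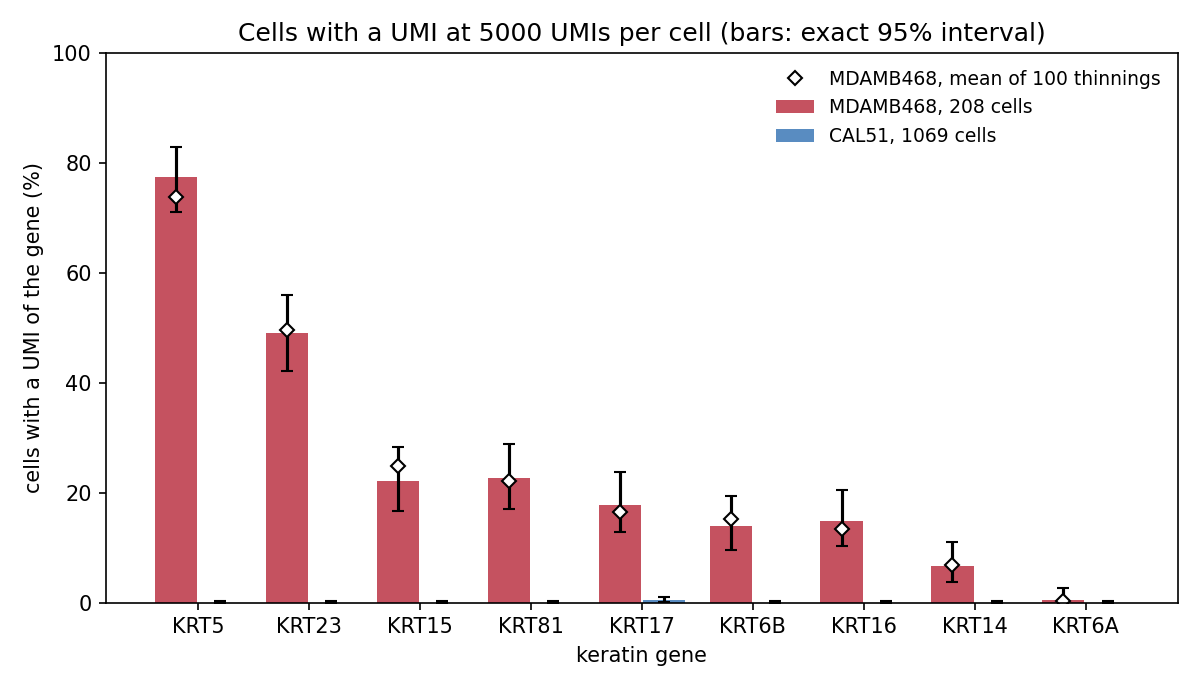
Percentage of cells with at least 1 UMI of each keratin after thinning to 5000 UMIs per cell, in MDAMB468 and CAL51, with exact 95% intervals; diamonds give the mean of 100 thinnings. The MDAMB468 shares run from 77.4% for KRT5 to 0.481% for KRT6A, and the highest CAL51 share is 0.468% for KRT17.

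The number of UMIs per cell varied more for some keratins than for others. KRT5 had a mean of 1.95 UMIs per thinned cell and at most 9, and 63 cells had 3 or more. KRT23 had a mean of 0.822 and at most 5. KRT15, KRT16, KRT17 and KRT6B had nearly equal means, from 0.260 to 0.284, but their spread differed. The Fano factor, the variance over the mean, which is 1 for counts with no spread beyond sampling, was 1.33 for KRT15, 1.74 for KRT17, 2.94 for KRT6B and 3.41 for KRT16. The same cell held the most UMIs of KRT16 (10) and of KRT6B (7). These factors are from 1 draw with that cell kept, and the order of KRT6B and KRT16 was not checked without it. The 20 cells with the most UMIs of the gene held 55.9% of the KRT15 UMIs, 69.6% of those of KRT17, 83.3% of those of KRT6B and 81.4% of those of KRT16. KRT81 also had a high Fano factor of 2.57, with 10 UMIs in 1 cell, whereas those of KRT5 (1.81), KRT14 (1.48) and KRT23 (1.38) were lower. For comparison, 6277 genes with mean levels in the range of these 8 keratins had a median Fano factor of 1.06 and a 95th percentile of 1.36. All 8 were above that median and 7 above that percentile, KRT15 being the exception. These genes were pooled over means from 0.0865 to 1.95 and not matched to the level of each keratin, and KRT5 was at the upper end. KRT23 (1.38) and KRT15 (1.33) lay close to the percentile on either side in this 1 draw.

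**Figure D3:**
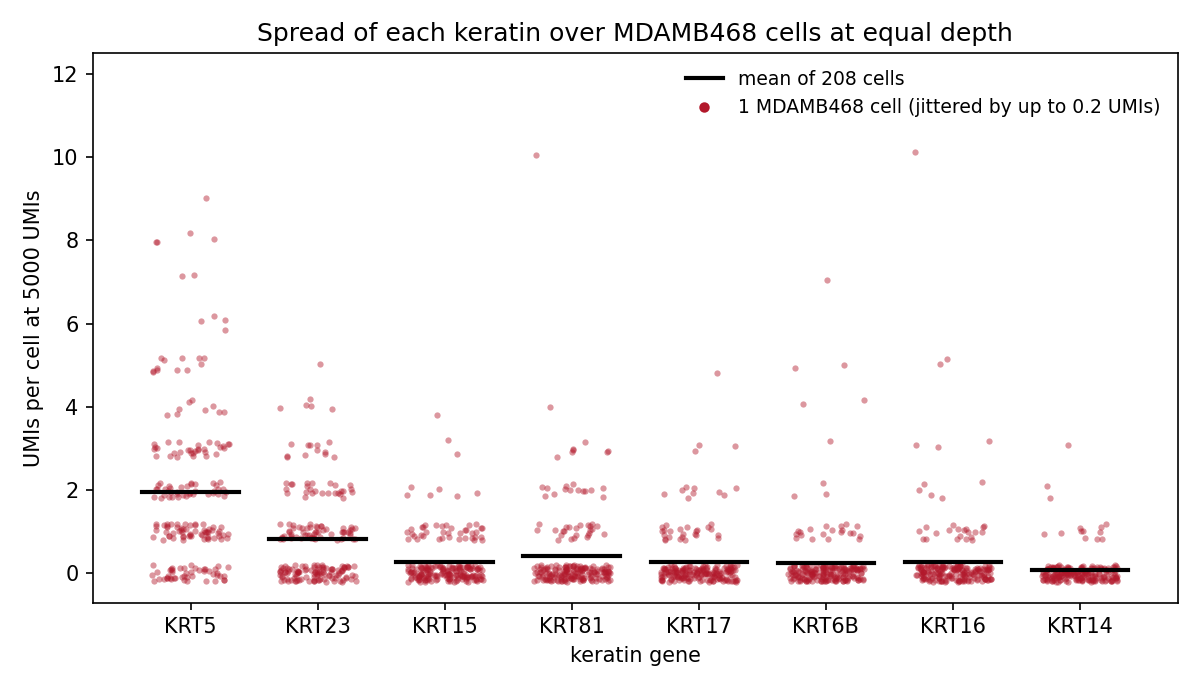
UMIs of 8 keratins in each of 208 MDAMB468 cells thinned to 5000 UMIs; points are cells, jittered sideways and by up to 0.2 UMIs, and black lines are means. KRT16 and KRT6B reach 10 and 7 UMIs in the same cell while most cells have 0, and KRT15, with a similar mean of 0.284, reaches 4.

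The number of members detected differed between single cells. The numbers that independent detection would give were not computed, so these counts do not show how members combine. The median cell had 2 of the 9 keratins detected and the highest had 6; 12 cells had none and 36 (17.3%) had 4 or more. The median total before thinning of these cells was 13170.5 UMIs with none, 16053 with 1, 19522 with 2, 18431 with 3, 20202 with 4, 17151 with 5 and 10632 in the 3 cells with 6, with no steady rise. KRT5 was detected in 97 of the 134 cells without a stress keratin (72.4%, 64.0 to 79.8), in 44 of 53 with 1 stress keratin (83.0%, 70.2 to 91.9), in 18 of 18 with 2 (100%, 81.5 to 100) and in 2 of 3 with 3. Mean KRT5 was 1.49, 2.45, 3.83 and 2 UMIs per thinned cell in the same order. The median totals before thinning were 15974.5, 19472, 18701.5 and 28770 UMIs and the median mitochondrial shares 5.72%, 5.90%, 6.62% and 5.15%; their part in these values was not tested.

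Pairs of keratins were described by Pearson's r of log2(thinned UMIs + 1) over the 208 cells. These cells share 1 library, 1 culture and free RNA, and most values are 0 or 1 UMI, so r is a description and weak values are no finding. In the 1 thinning used for the counts above, 5 of 28 pairs among the 8 detected keratins reached an r of 0.2, where 85602 of 22094628 pairs of genes of at least the mean level of KRT14 did (0.387%). The median r was 0.075 for the keratin pairs and near 0 for all gene pairs. The number of pairs moved with the draw and the depth, from 3 to 9 over 100 thinnings to the same depth, and was 2 at 2500 UMIs, 13 at 10000 and 10 in unthinned counts, so it is given as a range and not as a fixed group.

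On the mean of the 100 thinnings, 4 pairs reached 0.2. They were KRT5 and KRT16 (mean r 0.30, range 0.15 to 0.42), KRT14 and KRT16 (0.30, 0.052 to 0.60), KRT5 and KRT6B (0.29, 0.19 to 0.40), and KRT16 and KRT6B (0.27, 0.13 to 0.41). Each of the 4 was positive in all 100 draws. Leaving out 2 cells per pair, the top cell of each gene, gave 0.30, 0.31, 0.29 and 0.27. At 2500 UMIs per cell the same pairs had r of 0.14, 0.20, 0.26 and 0.14, and at 10000 UMIs 0.39, 0.44, 0.37 and 0.47, so KRT5 and KRT16, and KRT16 and KRT6B, were under 0.2 at the lower depth. KRT5 and its filament partner KRT14 had a mean r of 0.19, with 0.27 in the 1 thinning and 0.26 at 10000 UMIs, where KRT14 also reached 0.31 with KRT15 and 0.23 with KRT6B. KRT5 and KRT15 had a mean r of 0.13.

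The same thinned counts can be read as shares of cells, which are not separate support. KRT16 was detected in 8 of the 14 cells with KRT14 (57.1%, 28.9 to 82.3) and in 23 of the 194 without it. KRT6B was detected in 10 of the 31 cells with KRT16 (32.3%, 16.7 to 51.4) and in 19 of the 177 without it. For these 2 pairs alone, of 28, the exact intervals of the 2 shares did not overlap in this draw. KRT6B was detected in 26 of 161 cells with KRT5 and in 3 of 47 without it, and KRT16 in 28 and 3 of the same cells, with overlapping intervals in both cases. Stress keratins were thus detected in cells with and without a KRT5 UMI at this depth.

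No pair with KRT15, KRT17, KRT23 or KRT81 had a mean r of 0.2. The highest of KRT15 was 0.16, with KRT6B. KRT17, grouped with KRT16 by its known induction, had a mean r of 0.051 with KRT16, 0.13 with KRT6B and 0.18 with KRT5, the last close to the 0.19 of KRT5 and KRT14. At 10000 UMIs these 3 values of KRT17 were 0.16, 0.09 and 0.23, and KRT17 and KRT23 had 0.21. KRT17 and KRT16 were both detected in 7 cells, where the product of their shares gives 5.51. KRT81 had a mean r of 0.13 with KRT23 and of 0.09 or less with each of the other 6. KRT23, the second most abundant member, had a mean r of 0.01 with KRT5 and 0.00 with KRT6B; KRT5 and KRT23 were both detected in 76 cells, where the product of their shares gives 79.0. Whether KRT16 differs from KRT17 in its relation to KRT5 was not tested.

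**Figure D4:**
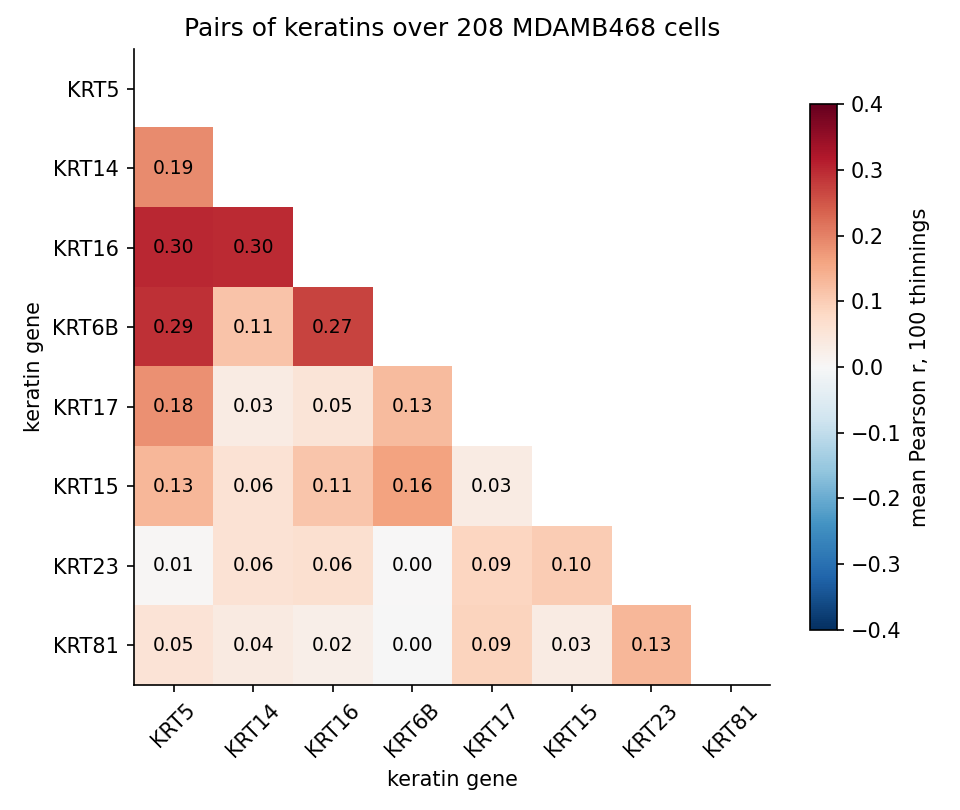
Mean Pearson r over 100 thinnings to 5000 UMIs for each of 28 pairs of keratins over 208 MDAMB468 cells; red is positive. The 4 darkest squares, from 0.27 to 0.30, join KRT5, KRT16 and KRT6B with each other and KRT14 with KRT16, while the rows of KRT23 and KRT81 stay at or under 0.13.

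Among 3714 genes with at least 0.2 UMIs per thinned cell, MMP7 was the most like the summed keratins. MMP7 encodes matrilysin, a secreted metalloproteinase of glandular epithelia, and had 520 UMIs in MDAMB468 (94.5 CPM) and 0 in CAL51. Its r with the summed keratins was 0.34 in the thinning used, 0.32 on the mean of 20 thinnings, 0.19 at 2500 UMIs and 0.37 at 10000. S100A2, a calcium-binding protein gene of basal keratinocytes (2212 CPM), had 0.30 and 0.27, and KRT19 had 0.27 and 0.25. FAM177A1, GPX1, ENO1, SAT1 and CD44 complete the 8 genes with the highest r in that thinning, at 0.24 to 0.27, but averaged 0.02, 0.12, 0.13, 0.17 and 0.17 over the 20 thinnings. The 99th percentile of r over the 3714 genes was 0.18 in the single thinning and 0.12 on the mean. The first 3 genes were also the first 3 by that mean. CD44, SAT1 and ENO1 ranked 13, 14 and 31 by it and were above its 99th percentile, while GPX1 and FAM177A1 were below it.

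For KRT5 alone the order began with S100A2 (0.38, mean 0.31) and MMP7 (0.34, mean 0.29). SLPI, which encodes a secreted protease inhibitor, came next at 0.24 but averaged 0.10. The 3 genes named for KRT23, which were TSN, LUZP1 and COX17, had r of 0.23 to 0.24 in that thinning and averaged 0.06, 0.07 and 0.04. The highest mean r with KRT23 was 0.142, for AATF, and the 99th percentile of that mean over genes was 0.095. For the summed stress keratins MMP7 came first again (0.38, mean 0.39, 0.42 at 10000 UMIs), followed by the vimentin gene VIM (0.28, mean 0.23). Likeness to the stress sum and to KRT6B was looked at after the values above had been seen.

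MMP7 was closest to KRT6B, with r of 0.42 in the thinning used, a mean of 0.39 over 100 thinnings (0.21 to 0.57) and 0.42 without the 2 cells with the most UMIs of either gene. MMP7 was detected in 17 of the 29 cells with KRT6B (58.6%, 38.9 to 76.5) and in 30 of the 179 cells without it (16.8%, 11.6 to 23.1). MMP7 had been picked out by its r with KRT6B in these same counts, so the shares restate that choice. For KRT5 the shares were 44 of 161 cells (27.3%) and 3 of 47 (6.38%), with intervals of 20.6 to 34.9 and 1.34 to 17.5. MMP7 was also named by its r with KRT5 and with the summed keratins in these counts, so these shares restate a choice too. Over 100 thinnings the mean r of MMP7 was 0.29 with KRT5, 0.23 with KRT16, 0.16 with KRT17 and under 0.10 with KRT14, KRT15, KRT23 and KRT81.

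**Figure D5:**
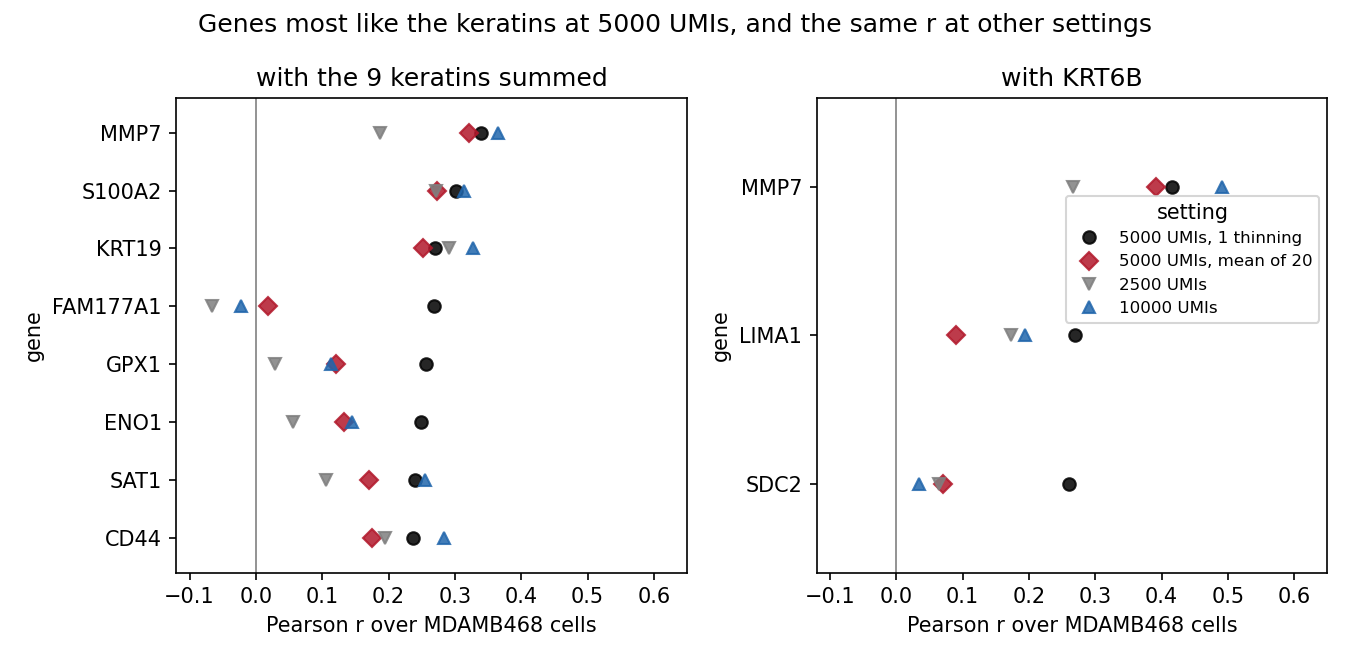
Pearson r over MDAMB468 cells of the genes most like the 9 summed keratins (left) and KRT6B (right) in 1 thinning to 5000 UMIs, with the mean of 20 thinnings and the values at 2500 and 10000 UMIs. MMP7 stays at 0.19 or above with the sum and at 0.27 or above with KRT6B in all 4 settings, whereas FAM177A1 falls from 0.27 in 1 thinning to 0.02 on the mean.

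Other genes of the keratin network were described by 7 lists. Of 13 desmosome and keratin anchoring genes in the matrix, which tie keratin filaments to cell junctions, 11 had at least 20 UMIs. Of these, 3 were at least 4-fold higher in MDAMB468 and 1 lower, beside 7.38% and 5.84% of all genes. Their median log2 difference was 1.69 against -0.13 for all genes tested. PPL had no UMI in MDAMB468, so it could not pass the filter through that line. DSC3 had 340 UMIs in MDAMB468 and 15 in CAL51, so it reached 20 UMIs only through MDAMB468. The count of these genes higher in MDAMB468 is therefore no support. DSC3, a desmocollin of stratified epithelia, had 61.8 CPM in MDAMB468 and 0.925 in CAL51, and PKP2, a plakophilin of simple epithelia, had 6.18 and 119 CPM. Within MDAMB468 their r with the summed keratins was highest for DSP, the desmoplakin gene (0.17), and lowest for DST (-0.10), the gene of dystonin, which anchors keratin at hemidesmosomes.

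Of 16 tested regulators with a known part in basal or stress keratin expression, 7 were at least 4-fold higher in MDAMB468 and 0 lower, beside 7.38% and 5.84% of all genes, with a median log2 difference of 1.50 against -0.13. TFAP2C and TP63 had no UMI in CAL51, so neither could pass the filter through that line. The count of regulators higher in MDAMB468 is therefore no support. TFAP2C, which encodes an AP-2 factor, had 80.3 CPM in MDAMB468 and 0 in CAL51, and EGFR, whose signalling induces stress keratins in epidermis, had 459 and 12.1 CPM. KLF5 was 4.05-fold higher in CAL51 as a ratio of plain CPM (126 against 31.1 CPM). On the log2(CPM + 1) scale of the counts its difference was -1.98, just short of 4-fold. NFE2L2, which encodes the oxidative stress factor NRF2, had 126 and 119 CPM, a ratio of 1.06 (0.968 to 1.15). The highest r with the summed keratins in this list was 0.17 for EGFR and the lowest -0.07 for NFE2L2.

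Of 11 tested basal epithelial genes, 6 were at least 4-fold higher in MDAMB468 and 1 lower, beside 7.38% and 5.84% of all genes. Their median log2 difference was 3.09. TRIM29 and LAMB3 had no UMI in CAL51, so neither could pass the filter through that line. The count of basal epithelial genes higher in MDAMB468 is therefore no support. S100A2 had the highest difference (2212 and 25.1 CPM), and LAMA3, which encodes a laminin chain, the lowest (0.727 and 8.07 CPM). The summed list had an r of 0.31 with the summed keratins and 0.38 with KRT5, but S100A2 gave 2212 of the list's 2718 CPM and had nearly the same r by itself (0.30 and 0.38). The median r of the 5 genes of the list with at least 0.2 UMIs per thinned cell was 0.05. ITGA6, the integrin alpha 6 gene of hemidesmosomes, had -0.02. Of 8 tested keratinocyte alarm and cornified envelope genes, 6 were at least 4-fold higher in MDAMB468 and 0 lower, with a median of 6.10. S100A7, S100A8, S100A9, PI3 and LCN2 had no UMI in CAL51 and could reach 20 UMIs only through MDAMB468, so this count, like that of the keratins, supports nothing. Within MDAMB468 the list's sum had an r of -0.10 with the summed keratins, with S100A8 at -0.20, S100A9 at -0.12 and SLPI at 0.09. S100A8 and S100A9 encode the 2 chains of calprotectin and had 109 and 298 CPM in MDAMB468 and 0 in CAL51. TGM1, the transglutaminase of the cornified envelope, had 0.545 and 1.05 CPM.

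Of the simple keratins, KRT19 (0.27) and KRT7 (0.23) had a positive r with the summed keratins in the thinning used, KRT8 had 0.06 and KRT18 -0.02. Of 12 S phase genes, 0 were at least 4-fold higher and 1 lower (MCM2, 33.8 and 150 CPM). Of 12 G2 and M phase genes, 0 were in either direction. The shares over all genes were 7.38% and 5.84%, so such counts in lists of 12 are no finding about cycle genes. The summed S phase list had an r of -0.02 with the summed keratins and the G2 and M phase list of -0.17. For single cycle genes r ran from -0.15 for SLBP to 0.04 for MCM2 in S phase, and from -0.16 for CENPF to 0.09 for UBE2C in G2 and M phase.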

How the data were processed

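The deposited matrix held UMI counts, whole numbers that the authors had not visibly normalised. STARsolo is named in the submitters' processing notes; the sources used here do not give its version, genome build, annotation, strand setting or barcode selection. The lowest deposited barcode total was 2501 UMIs. Barcode prefixes gave the line. A gene name table gave symbols for 30730 of 30796 identifiers, and positions came from GENCODE 29 on GRCh38.

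UMIs were summed per line and scaled to CPM. Line differences are log2(CPM + 1) of MDAMB468 minus CAL51, a scale that understates differences of low genes, among genes with at least 20 UMIs over both lines. Poisson, ratio and Clopper-Pearson intervals are exact, at 95%, and cover counting error only. No p-value was computed, since each line had 1 library. No doublet caller was run; the tenth of cells with the most UMIs was left out as an alternative. Cells were thinned without replacement (5000 UMIs, also 2500 and 10000). Scripts were tested on simulated data. The members and lists were chosen with earlier results of these data known. Named genes are the members, the extremes of each list in line difference and in r, the 8 genes most like the sum and the 3 most like each member with at least 500 UMIs. Chosen after values were seen were the r of 0.2, the averages over 100 and 20 thinnings, KRT16P6 and the other single keratins, VIM, the comparison of KRT6B with MMP7, and the omission of the barcode with the most UMIs. Computation used scipy 1.17.1 and numpy 2.4.6 in Python 3.11.15, with matplotlib 3.10.9 and pandas 2.3.3, and edgeR 4.0.16 in R 4.3.3 for TMM factors alone.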

Additional observations from a re-analysis of the deposited data

Results flagged for a closer look

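Barcodes labelled CAL51 whose sequence is also in the MDAMB468 library carried the keratins at the level of MDAMB468. The 31 barcodes held 135240 UMIs, of which 111 were UMIs of the 9 keratins, or 820.8 CPM (exact 95% Poisson interval 675 to 988). Their 31 partners in MDAMB468 had 891 CPM (852 to 932), and the other CAL51 barcodes had 1.17 CPM (0.705 to 1.83). Of the 9 genes, 8 were detected in the 31 barcodes. They were outside the comparison of the lines. With them kept in CAL51, the log2 difference of KRT5 was 6.88 instead of 8.66, that of KRT23 5.85 instead of 7.38 and that of KRT15 5.54 instead of 6.03. Satellites in MDAMB468 had 959 CPM of the 9 keratins, against 870 in the other barcodes of that line.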

How the results depend on the processing

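The 72 alternative values of the keratins' line differences kept their sign, apart from KRT6A, which was 0 without its 1 barcode; the pseudocount moved them most. At 10 CPM the KRT14 difference was 1.43, under 4-fold, while the other 7 tested members stayed above it, and 286 genes of the matrix were at least 4-fold higher and 266 lower; at 0.1 CPM 1481 were lower. TMM scaling shifted the median of all genes by -0.12. The KRT5 share was 51.2% at 2500 UMIs, 92.8% at 10000 and 86.0% without thinning, and the stress keratin share 25.6%, 51.6% and 56.6%; both moved with depth by construction. Pairs with r of at least 0.2 numbered 2 at 2500 UMIs, 13 at 10000 and 10 in unthinned counts, and the median r was 0.19 at 10000. Of 28 pairs, 14 were positive in every setting, but the settings reuse largely the same cells. No such count is given for all gene pairs, so it has no reference. The cause of the change with depth was not tested. No paired analysis was possible because each line has 1 library. Detection of KRT14, KRT15, KRT16, KRT17, KRT6A and KRT6B in single cells is limited by means under 0.3 UMIs at 5000 UMIs.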
